A study of Mus musculus with 99 samples.

Results

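Chemokines are small secreted or membrane-tethered proteins that steer the movement of cells, and 10 of their genes were followed here over 3 tissues of the mouse. The members were the rows of the count table carrying the symbols Ccl2, Ccl3, Ccl4, Ccl6, Ccl9, Ccl12, Cxcl12, Cxcl14, Cxcl16 and Cx3cl1, 1 row each, of 35870 genes in all. They belong to the CC, CXC and CX3C families, named for the spacing of conserved cysteines. A further 28 ligands of these families and of the XC family are described below as counts. Polyadenylated RNA had been sequenced from gastrocnemius and quadriceps, both leg muscles, and from whole spinal cord of male C57BL/6 wild-type mice perfused with PBS before the tissues were frozen. In each tissue there were sedentary mice of 10 months, sedentary mice of 18 months and exercised mice of 18 months. The form, length and intensity of the exercise are not described in the labels. Cord and gastrocnemius had 10, 10 and 13 libraries in these groups, in this order, and quadriceps had 10, 9 and 12.

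A chemokine binds a receptor with 7 membrane-spanning helices on a responding cell, which then moves towards higher chemokine levels or adheres. Ccl2 and Ccl12 attract monocytes carrying Ccr2, while Ccl3 acts on Ccr1, and Ccl3 and Ccl4 are both made by activated microglia, the resident macrophages of the central nervous system. Ccl6 and Ccl9 are rodent CC chemokines of myeloid cells that act on Ccr1. Cxcl12, from stromal and endothelial cells, acts on Cxcr4 and is scavenged by Ackr3. Cxcl16 and Cx3cl1 are made as membrane proteins that proteases such as Adam10 and Adam17 release, with Cxcr6 and Cx3cr1 as their receptors. In the nervous system neurons make Cx3cl1 and microglia carry Cx3cr1.

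Of the members, 7 lie on chromosome 11 of GRCm38 (positions from the GENCODE M21 annotation). Ccl2 (Entrez gene 20296, chr11:82035571-82037453, plus strand) and Ccl12 (20293, chr11:82101845-82103400, plus strand) are 64.4 kb apart. Ccl9 (20308, chr11:83572919-83578636, minus strand), Ccl6 (20305, chr11:83587882-83593087, minus strand), Ccl3 (20302, chr11:83647844-83649355, minus strand) and Ccl4 (20303, chr11:83662584-83664683, plus strand) follow one another, with 9.2, 54.8 and 13.2 kb between neighbours. Cxcl16 (66102, chr11:70453983-70459984, minus strand) lies away from both groups. Cxcl12 (20315, chr6:117168535-117181367, plus strand), Cxcl14 (57266, chr13:56288643-56296551, minus strand) and Cx3cl1 (20312, chr8:94772009-94782427, plus strand) are on other chromosomes.

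The promoters of 3 neighbours are shown because Ccl3 had the largest difference with age among the members, while Ccl6 and Ccl9, next to each other, had the highest likeness of level in gastrocnemius. Each is the 250 bases before the RefSeq start on GRCm38.p6, written 5′ to 3′ on the gene's strand. Capitals in the Ccl3 sequence (chr11:83649379-83649628) mark TATAA on either strand, and capitals in those of Ccl6 (chr11:83593088-83593337) and Ccl9 (chr11:83578637-83578886) mark a stretch of 13 bases that both hold.
Ccl3: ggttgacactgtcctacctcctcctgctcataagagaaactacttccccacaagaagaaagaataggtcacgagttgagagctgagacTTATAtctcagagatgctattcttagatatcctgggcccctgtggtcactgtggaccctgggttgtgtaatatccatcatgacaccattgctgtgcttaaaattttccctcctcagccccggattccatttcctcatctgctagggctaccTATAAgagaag
Ccl6: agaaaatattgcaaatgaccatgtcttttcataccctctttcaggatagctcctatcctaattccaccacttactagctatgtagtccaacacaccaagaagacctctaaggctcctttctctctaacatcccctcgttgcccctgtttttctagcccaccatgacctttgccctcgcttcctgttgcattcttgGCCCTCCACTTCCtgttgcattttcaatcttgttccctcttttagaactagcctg
Ccl9: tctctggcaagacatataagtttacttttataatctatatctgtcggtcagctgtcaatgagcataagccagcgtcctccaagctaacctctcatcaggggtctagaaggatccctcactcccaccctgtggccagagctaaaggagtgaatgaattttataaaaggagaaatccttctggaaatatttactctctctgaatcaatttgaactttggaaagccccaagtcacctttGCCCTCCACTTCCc

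In Ccl3 the TATAA on the coding strand began 11 bases before the start, and the one on the other strand lay 162 to 158 bases before it. The stretch shared by Ccl6 and Ccl9 began 55 bases before the start in Ccl6 and 14 in Ccl9. RefSeq promoters were at hand for 7 of the 10 members, and 6 motifs were searched in them on both strands. TATAA occurred in 22.8% of the 32851 promoters of the same length, CCAAT in 33.8%, TGANTCA (AP-1) in 6.75%, GAGGAAG (PU.1) in 10.6%, the interferon response element (GAAA, any 2 bases, GAAA) in 2.98% and the NF-κB consensus in 7.25%. Ccl9 held the AP-1 letters 53 to 47 bases before its start and the NF-κB consensus at 35 to 26. The interferon response letters were found in Cxcl14 and the PU.1 letters in Cx3cl1. TATAA, marked above only in Ccl3, was also found in Ccl9, Ccl12 and Cx3cl1. These matches describe letters only.

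Total counts ran from 29.06 to 62.77 M per library with a median of 38.71 M, and no library was a copy of another of its group (lowest chi-square per gene 3.23). The tissue labels were checked against defining markers. The 9 neuronal markers summed to 7673 to 9561 TPM (transcripts per 1e6, a scale per transcript length) in cord and to 3.022 to 13.44 TPM in the muscles, where Chat was at a median of 0 in 5 of the 6 groups. The 6 skeletal muscle markers summed to 92745 to 155686 TPM in the muscles and to 329.3 to 1129 TPM in cord. Single libraries are named below by their title numbers. Muscle libraries 3.1 and gastrocnemius 2.2, all from 10 months, and cord libraries 5.2 and 6.1, both from sedentary mice of 18 months, stood apart from the rest. Numbers beginning with 1 to 3 occur only at 10 months, so that any shared handling behind them and age cannot be told apart. Nothing in the labels says that libraries of a group came from separate animals. If they did not, p-values would cover only the spread between these libraries.

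The cord and the muscles differed in which chemokine RNA was most abundant. In TPM, which allows genes to be compared, Cx3cl1 averaged 229 (204 to 301 over 33 libraries) in cord. Cxcl14, a secreted CXC chemokine, followed at 77.1 (66.3 to 96.6), and Cxcl12 at 36 (28.3 to 45.3). The ranges of these 3 genes overlapped neither each other nor that of the next gene. The other 7 members averaged 1.98 to 8.61 TPM in cord, from Ccl4 to Ccl6, and each overlapped its neighbour in the order.

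In gastrocnemius Cxcl12 (29.7 TPM, 16.5 to 47.5) and Cxcl14 (28.7, 19.9 to 38.2) led the order and overlapped, as they did in quadriceps at 26 and 24.8 TPM. Ccl6 followed at 13.3 TPM in gastrocnemius and 9.42 in quadriceps, then Ccl9 at 4.02 and 2.97. Cx3cl1, first in cord, averaged 2.31 TPM in gastrocnemius and 2.46 in quadriceps. Ccl3 and Ccl4 averaged 0.118 and 0.135 TPM in gastrocnemius and 0.0576 and 0.0692 in quadriceps, so most muscle libraries held only a few of their reads or none. Ccl3 had at most 5 counts in any muscle library, and Ccl4 at most 7.

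**Figure D1:**
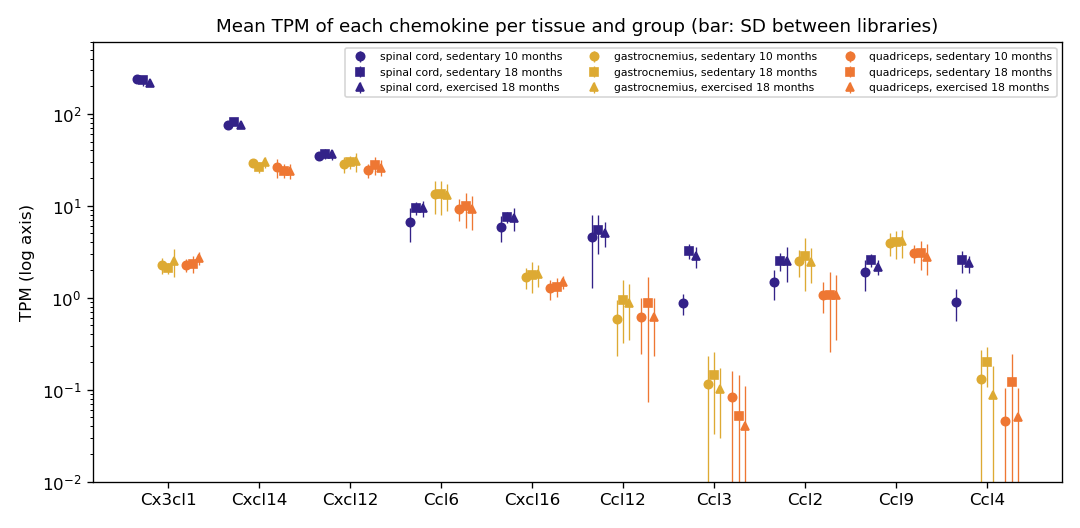
Mean TPM (log axis) of each chemokine gene in each group of each tissue, with bars for the SD between libraries. Over all libraries of a tissue, Cx3cl1 averaged 229 TPM in cord against 2.31 in gastrocnemius and 2.46 in quadriceps. Ccl3 and Ccl4 were close to 0 in both muscles.

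In the cord of sedentary mice, 4 of the 10 chemokine genes rose between 10 and 18 months and none fell: Ccl3 3.77-fold, Ccl4 2.84-fold, Ccl2 1.73-fold and Ccl6 1.45-fold. The fitted log2 difference was above 0 for 9 of the 10, with a median of 0.42 against 0.007 over all 18956 genes tested. Of those genes 535 were called higher, or 2.82%. Here and below, a call means a p under 0.05 in edgeR's quasi-likelihood test after Benjamini-Hochberg adjustment across every tested gene. In bulk tissue a higher level may stem from more cells of a type or from more RNA per cell, and fewer cells and less RNA per cell likewise cannot be told apart.

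Ccl3, a ligand of Ccr1, was at 0.158, 0.253 and 0.35 CPM (counts per 1e6 reads of the library, scaled by TMM factors) in the lowest, median and highest of the 10 libraries of 10 months. At 18 months the sedentary libraries were at 0.731, 0.9 and 1.18 CPM. All 10 lay above every 10-month library, on few reads: 6 to 14 counts per library at 10 months and 27 to 54 at 18 months. The log2 difference was 1.91 (SE 0.16, adjusted p = 8.17e-10).

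Ccl4, its neighbour, was at 0.178, 0.264 and 0.531 CPM in the lowest, median and highest library of 10 months and at 0.434, 0.806 and 1.1 CPM at 18 months. Of the 10 older libraries, 9 lay above all younger ones. The groups overlapped through library 2.2, whose 0.531 CPM was the highest of the younger group, where the next was at 0.36. The log2 difference was 1.51 (SE 0.18, adjusted p = 7.85e-07).

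Ccl2, which attracts monocytes through Ccr2, overlapped more. It was at 0.0961, 0.448 and 0.609 CPM (lowest, median, highest) at 10 months and at 0.482, 0.746 and 1.01 CPM at 18 months, where 6 of 10 libraries exceeded all younger ones. The log2 difference of 0.79 (SE 0.23) had an adjusted p of 0.0348, and Ccl2 passed in 24 of 33 fits that each left out 1 library, with adjusted p-values from 0.021 to 0.0793. It was lost without any of 1.1, 1.2, 1.4, 2.2, 2.3, 3.3, 6.1, 6.2 or 6.4. Its adjusted p was 0.0873 without cord libraries 5.2 and 6.1, 0.0542 with no filter on low counts and 0.0641 with a gene length slope as covariate.

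Ccl6, expressed by myeloid cells, was at 2.29, 2.91 and 6.79 CPM at 10 months and at 3.73, 4.77 and 6.08 CPM at 18 months. All 10 older libraries lay above the younger median, but none exceeded the highest younger library, 3.1. The log2 difference was 0.54 (SE 0.14, adjusted p = 0.0263), and Ccl6 passed in 25 of 33 leave-one-out fits. It was lost without any of 1.1, 1.2, 1.4, 2.2, 2.3, 3.3, 6.1 or 6.4, with adjusted p-values from 0.000129 to 0.0664 over the 33. The call was also lost when only both compared groups were fitted (adjusted p = 0.0787) and with a gene length slope as covariate (0.0536).

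Ccl9, its neighbour, was at 1.23, 1.9 and 3.76 CPM against 1.97, 2.65 and 3.72 CPM. With a log2 difference of 0.47 (SE 0.15), an unadjusted p of 0.00345 and an adjusted p of 0.056 it was not called, and it was called by DESeq2 (adjusted p = 0.0286) and by limma-voom with quality weights (0.000869). Ccl12, a second ligand of Ccr2, was at 0.293, 0.611 and 2.4 CPM against 0.57, 0.92 and 2.24 CPM. Its log2 difference was 0.27 with an SE of 0.27 (adjusted p = 0.533).

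**Figure D2:**
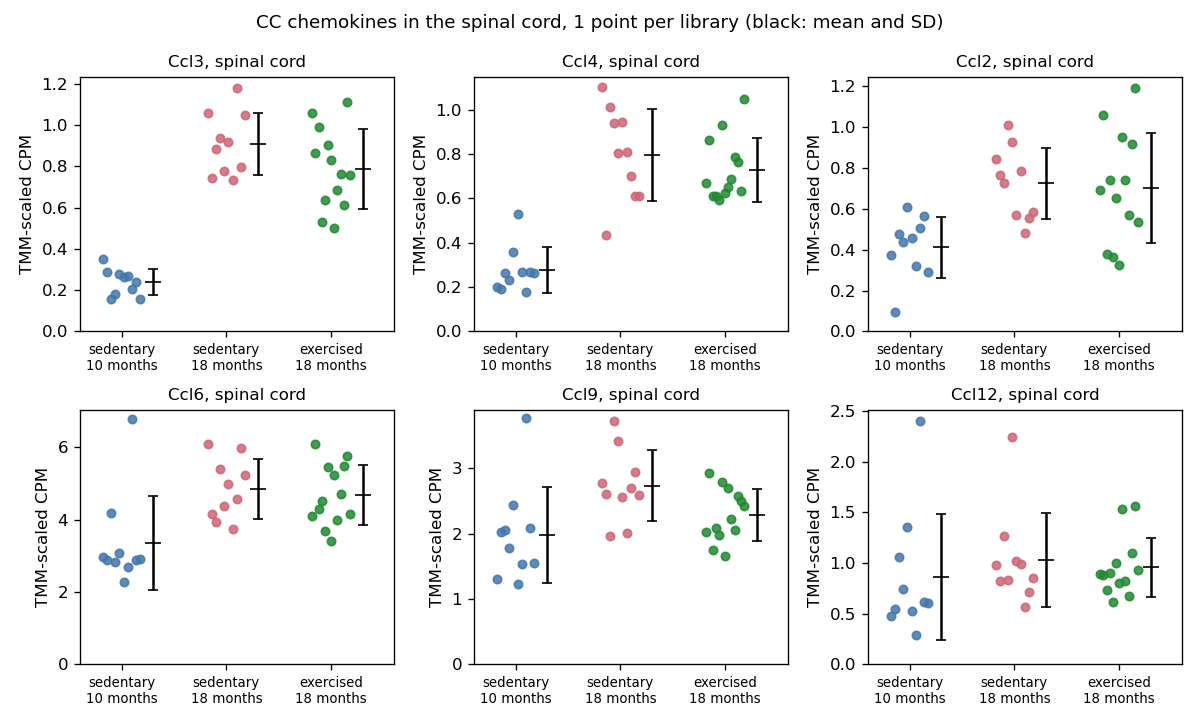
Levels of Ccl2, Ccl3, Ccl4, Ccl6, Ccl9 and Ccl12 in spinal cord, in TMM-scaled CPM, with a point per library and the mean and SD of each group. All 10 sedentary and all 13 exercised libraries of 18 months lay above the 10-month range for Ccl3, while for Ccl6, Ccl9 and Ccl12 the highest 10-month point is library 3.1.

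Markers of microglia and macrophages moved with these genes. The summed level of the 17 markers, none at a median of 0 in any group, was 696.5 to 1464 TPM in sedentary cord of 10 months (median 761.1), 1083 to 1351 TPM in sedentary cord of 18 months (median 1234) and 918.5 to 1298 TPM in exercised cord (median 1159). Of the 17, 9 rose with age, among them Trem2 (log2 difference 0.79, adjusted p = 1.79e-07), Cd68 (0.89, 7.67e-07) and Tyrobp (0.68, 8.04e-06). Their median log2 difference was 0.40, compared with 0.42 for the 10 chemokine genes. Red cell markers reached 43773 TPM in sedentary cord library 6.1 of 18 months, while the rest of its group ran from 649.6 to 4543 TPM. At 10 months they ran from 1030 to 4783 TPM, and none of these 5 genes was called. Of the 4 tested T and NK cell markers, Cd8a rose (log2 difference 1.60).

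Cord library 3.1 was high in the microglia and macrophage markers and in some of the CC genes. At 10 months its marker sum of 1464 TPM was above all libraries of 18 months, where the other 9 libraries of its group reached at most 888.4 TPM. It had the highest Ccl6, Ccl9 and Ccl12 of its group, at 6.79, 3.76 and 2.4 CPM. Its Ccl3 and Ccl4, at 0.207 and 0.178 CPM, were within the range of its group, and the latter was the lowest of it. Both rest on few reads, with 6 to 14 counts per library of the group for Ccl3 and 6 to 22 for Ccl4. A single library cannot sort the genes by a link to the markers, and its Ccl2 is not given here. Without library 3.1 the ageing differences were 0.70 for Ccl6 (adjusted p = 0.000129), 0.61 for Ccl9 (0.00323, now called) and 0.57 for Ccl12 (0.123), whose value ranged from 0.06 to 0.57 with 1 library left out. The lowest of these was without sedentary library 6.2 of 18 months, and without 2.3 it was 0.16. Ccl9 was called in 4 of the 33 leave-one-out fits, those without 2.1, 3.1, 5.2 or 7.4. The differences of Ccl3 and Ccl4 without library 3.1 were 1.89 and 1.45. The part of microglial and macrophage RNA in the chemokine differences was not tested beyond these values.

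**Figure D3:**
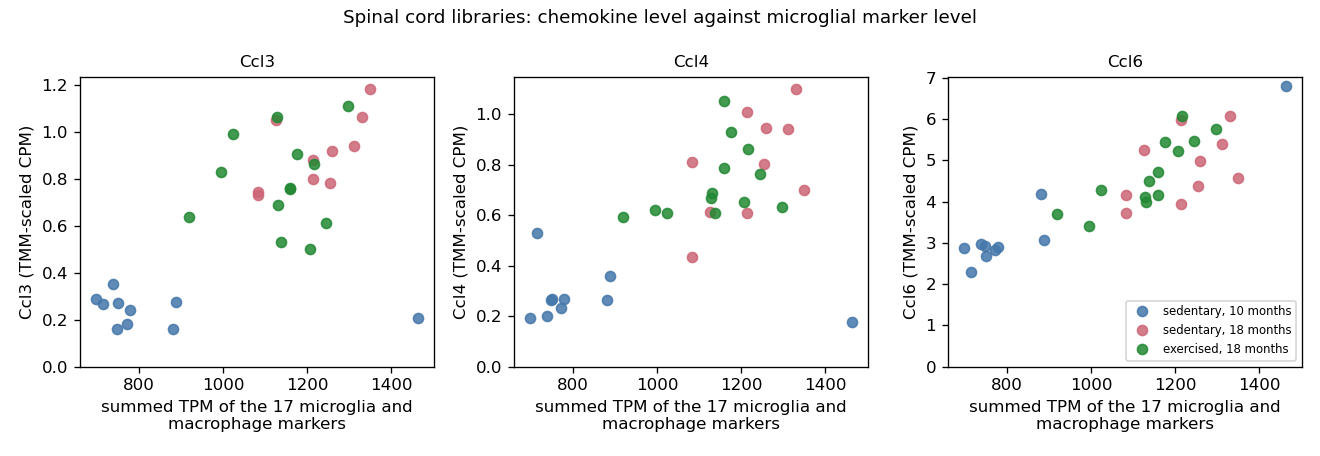
CPM of 3 CC chemokine genes against the summed TPM of 17 microglia and macrophage markers in the cord, a point per library, coloured by group. Library 3.1 of 10 months, at a marker sum of 1464 TPM, lies above all 18-month libraries for Ccl6 (6.79 CPM) and with the 10-month libraries for Ccl3 (0.207 CPM).

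None of the CXC and CX3C members was called with age in the cord. Cxcl12 was at 69.3, 88.4 and 99.7 CPM (lowest, median, highest) at 10 months and at 78.6, 92.1 and 104 CPM in sedentary mice of 18 months, a log2 difference of 0.11 (SE 0.07, adjusted p = 0.341). Cxcl14 was at 58.9, 64.7 and 71.5 CPM against 62.8, 69.9 and 82 CPM, and its log2 difference was 0.13 (SE 0.05, unadjusted p = 0.0132, adjusted p = 0.0996). For Cxcl12 4 of the 10 older libraries and for Cxcl14 5 of 10 lay above every younger one, and the ranges overlapped in both genes.

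Cxcl16, the membrane-bound ligand of Cxcr6, was at 2.37, 5.01 and 7.58 CPM at 10 months and at 4.89, 6.93 and 7.93 CPM at 18 months, a log2 difference of 0.37 with an SE of 0.17 (adjusted p = 0.155). Its values are uncertain, since 552 of its exon bases, or 18.3%, overlap Zmynd15 on the opposite strand and the use of strand in counting is not given in the sources used here. Zmynd15 itself had group medians of 1.71, 2.01 and 1.92 TPM in cord. Cx3cl1, the neuronal ligand of Cx3cr1, was at 243, 266 and 279 CPM at 10 months and at 232, 250 and 326 CPM at 18 months. Its log2 difference was -0.04 (SE 0.04, adjusted p = 0.568), the smallest in size of the 10.

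**Figure D4:**
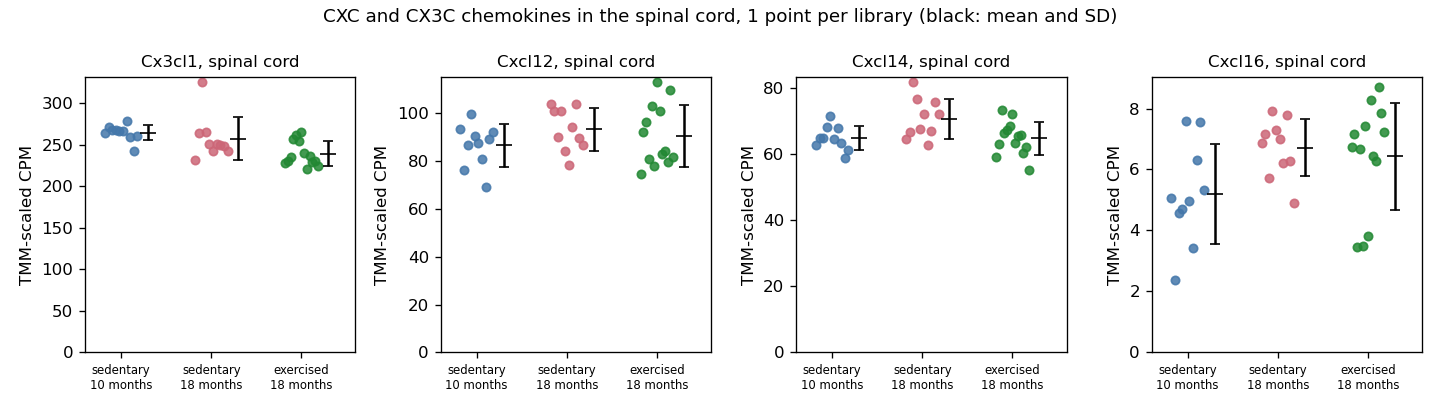
Levels of Cxcl12, Cxcl14, Cxcl16 and Cx3cl1 in spinal cord, in TMM-scaled CPM, with a point per library and the mean and SD of each group. The 3 groups overlap for each gene, and 1 sedentary library of 18 months (5.2) stands at 326 CPM for Cx3cl1.

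In the cord, no chemokine gene passed the threshold between exercised and sedentary mice of 18 months. With edgeR 0 of the 10 members were called, and DESeq2 and limma also called 0, against 0.0% of all genes. Only 2 members, Cx3cl1 and Cxcl14, had an unadjusted p under 0.05, as did 2565 of the 18956 genes. This comparison shares its sedentary libraries with the ageing comparison, so a high sedentary group of 18 months raises one difference and lowers the other.

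All 10 fitted differences for exercise were below 0, with a median of -0.11, but not every sign was stable. The difference of Ccl12 was 0.11 without sedentary library 6.2. With 1 library left out, those of Ccl2 and Ccl6 reached 0.021 and 0.007. Under alternative fits those of Ccl2 and Ccl4 reached 0.025 and 0.013. Ccl3 was at 0.5, 0.76 and 1.11 CPM in the lowest, median and highest exercised library and Ccl4 at 0.592, 0.668 and 1.05 CPM. The log2 differences from sedentary mice of the same age were -0.21 (SE 0.13, adjusted p = 0.414) for Ccl3 and -0.13 (SE 0.15, adjusted p = 0.654) for Ccl4, which was -0.05 without the sedentary library that moved it most. Ccl2 was at 0.326, 0.693 and 1.19 CPM in exercised cord, Ccl6 at 3.41, 4.51 and 6.08 CPM, Ccl9 at 1.66, 2.22 and 2.92 CPM and Ccl12 at 0.615, 0.891 and 1.56 CPM. Each range overlapped that of sedentary mice of the same age.

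Cx3cl1 was at 221, 235 and 265 CPM in exercised cord, and 6 of 13 libraries were below the lowest sedentary one. Its log2 difference of -0.10 (SE 0.04) had an unadjusted p of 0.0181 and an adjusted p of 0.368, and was -0.06 without sedentary library 5.2. Cxcl14 was at 55.3, 65.4 and 73.4 CPM, with a log2 difference of -0.13 (SE 0.05), an unadjusted p of 0.00856 and an adjusted p of 0.368. Cxcl12 (74.7, 84.3 and 113 CPM) and Cxcl16 (3.47, 6.73 and 8.71 CPM) differed by less than their standard errors, at -0.04 (SE 0.07) and -0.06 (SE 0.16).

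Set against sedentary mice of 10 months, the cord of exercised mice had higher Ccl3 (3.25-fold, log2 difference 1.70, SE 0.16, adjusted p = 7.97e-09) and Ccl4 (2.6-fold, 1.38, SE 0.17, adjusted p = 3.06e-06). All 13 exercised libraries lay above all 10 younger ones for both genes. These 2 were the only members called with edgeR, where 0.981% of all genes were called higher, and 5 members had an unadjusted p under 0.05. Age and exercise differ together in this comparison, which shares libraries with each of the others.

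Ccl2 (log2 difference 0.76, SE 0.22, adjusted p = 0.062), Ccl6 (0.49, SE 0.14, adjusted p = 0.057) and Cx3cl1 (-0.15, SE 0.04, adjusted p = 0.0646) narrowly missed the threshold. DESeq2 called 4 members higher and 1 lower, adding these 3 genes. Without cord library 3.1 the adjusted p was 0.0474 for Ccl2, 0.000195 for Ccl6 and 0.0379 for Cx3cl1.

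In gastrocnemius none of the 8 tested chemokine genes was called with edgeR with age, where 0.153% of genes were called in either direction, or with exercise, where 0.106% were. DESeq2 and limma also called 0 in both, but DESeq2 gave no adjusted p for Ccl12 with exercise. At an unadjusted p under 0.05 there were 0 with age and 2 with exercise. Ccl12 had the largest fitted difference with age, 0.66 (SE 0.38, adjusted p = 0.591), from a median of 0.129 CPM at 10 months to 0.186 CPM at 18 months in overlapping ranges, and it was 0.37 (adjusted p = 0.812) without the 18-month sedentary library 6.1. Ccl2 was at 0.61, 0.892 and 1.56 CPM (lowest, median, highest) at 10 months and at 0.394, 0.92 and 2.16 CPM at 18 months.

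Cx3cl1 and Cxcl14, which had the smallest unadjusted p-values for exercise in cord, were also the 2 genes with an unadjusted p under 0.05 for exercise in gastrocnemius, where both estimates were above 0. Cx3cl1 was at 2.22, 2.95 and 3.37 CPM in sedentary and 2.58, 3.18 and 6.58 CPM in exercised mice of 18 months (log2 difference 0.26, SE 0.13, adjusted p = 0.361), and its difference was 0.15 without exercised library 8.4. Cxcl14 was at 22.8, 28.1 and 35 CPM against 24.6, 32.8 and 39.2 CPM (log2 difference 0.18, SE 0.08, adjusted p = 0.309). In both genes the groups overlapped.

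In quadriceps none of the 7 tested members was called with edgeR with age (0.352% of genes called) or with exercise (0.757%), and DESeq2 and limma called 0. At an unadjusted p under 0.05 there were 0 with age and 1, Cx3cl1, with exercise. Cx3cl1 was at 2.34, 3.19 and 4.06 CPM in sedentary and at 3.18, 3.93 and 5.24 CPM in exercised mice of 18 months (1.22-fold, log2 difference 0.29, SE 0.12, unadjusted p = 0.022, adjusted p = 0.321). Cxcl16 was at 0.96, 1.48 and 2 CPM against 1.41, 1.78 and 2.22 CPM, a log2 difference of 0.24 (SE 0.14, adjusted p = 0.55).

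The comparison of exercised mice with sedentary mice of 10 months called many genes in the muscles, 6.73% in gastrocnemius and 11.1% in quadriceps, but no chemokine member, with edgeR, DESeq2 or limma. DESeq2 gave no adjusted p for Ccl12 in gastrocnemius there. Cx3cl1 in quadriceps was the one member with an unadjusted p under 0.05 (log2 difference 0.30, SE 0.12, adjusted p = 0.0938), and in gastrocnemius there were 0. Ccl6, the leading CC member of the muscles, was at medians of 7.93, 7.36 and 7.5 CPM in gastrocnemius and 5.83, 5.88 and 5.56 CPM in quadriceps in sedentary mice of 10 months, sedentary mice of 18 months and exercised mice. Cxcl12 had medians of 92.2, 89.7 and 91.2 CPM and of 87.5, 84.1 and 83.3 CPM.

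Ccl3 and Ccl4 in both muscles, and Ccl12 in quadriceps, had too few reads to be tested. Ccl3 was at 0 in 4, 1 and 2 gastrocnemius libraries of the 3 groups and in 4, 6 and 8 quadriceps libraries, and Ccl4 in 3, 1 and 4 and in 5, 2 and 5. In a fit with no filter on low counts, Ccl4 was higher with age in quadriceps by 1.27 (SE 0.62, unadjusted p = 0.0477, adjusted p = 0.517) and lower with exercise by -1.101 (SE 0.50, adjusted p = 0.46) in gastrocnemius and -1.18 (SE 0.58, adjusted p = 0.555) in quadriceps.

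**Figure D5:**
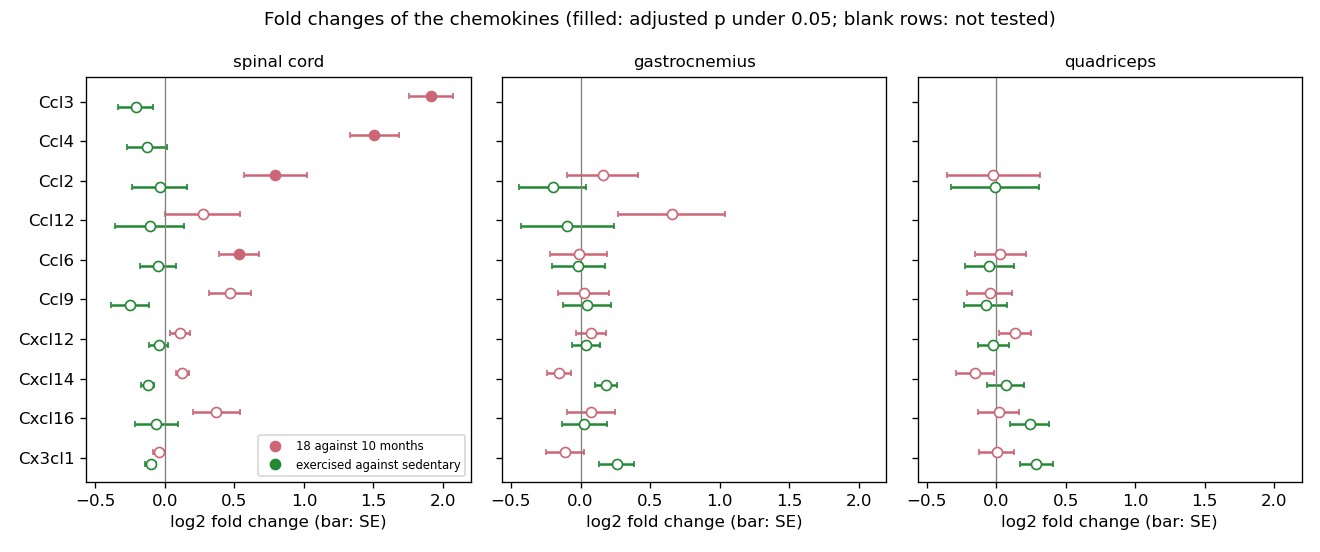
Log2 differences of the chemokine genes with their standard errors for age and for exercise at 18 months, in each tissue. Called genes (adjusted p under 0.05) are filled, which are Ccl2, Ccl3, Ccl4 and Ccl6 in cord for age.

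The difference with age was itself compared between tissues in a fit over all 97 libraries. Ccl3 was the 1 member called, where 1.08% of genes were called higher, with an ageing difference in cord above the mean of the 2 muscles by 2.02 on the log2 scale (SE 0.50, adjusted p = 0.0142). This value is a description only, because Ccl3 failed the filter in both muscles (0 to 5 counts per library) and passed it here through its cord libraries alone. Under 5 alternatives that gave an adjusted p, the value ran from 1.96 to 2.25 and the adjusted p from 0.00756 to 0.0229. Ccl4, which passed the filter in the same way, gave 0.54 with an SE of 0.53 (adjusted p = 0.602), so its difference between tissues was not established, although it was called in cord and not tested in muscle. For Ccl2 (0.70, adjusted p = 0.224), Ccl6 (0.51, adjusted p = 0.188) and Ccl9 (0.46, adjusted p = 0.203) the tissues did not differ at the threshold.

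The exercise difference of cord against the muscles was called for 0 members with edgeR, where 0.887% of all genes were called in either direction, and 3 members had an unadjusted p under 0.05. For Cx3cl1 it was -0.38 (SE 0.12, adjusted p = 0.0887), with adjusted p-values from 0.0372 to 0.126 over the alternatives. DESeq2, which gave the lowest of these, was the 1 tool that called it (-0.39). Ccl4, another of the 3, gave 1.05 (SE 0.41, adjusted p = 0.18). It failed the filter in both muscles and entered this fit through its cord libraries alone, so its value is a description only. Cxcl14 gave -0.25 (adjusted p = 0.266). For Ccl3, Ccl4 and Ccl12 DESeq2 gave no adjusted p in this comparison.

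The 2 muscles differed at 10 months in Ccl2, which was 2.14-fold higher in gastrocnemius (log2 difference 1.097, SE 0.297, adjusted p = 0.00891). It was the 1 call among 8 tested members, where 10.9% of all genes were called. Its 10 gastrocnemius libraries were at 0.61, 0.892 and 1.56 CPM and its 10 quadriceps libraries at 0.203, 0.411 and 0.585 CPM in separate fits, whose scalings differ. The gene stayed called under 6 alternatives, with adjusted p-values from 0.00332 to 0.0138. Ccr2, its receptor, was also higher in gastrocnemius at 10 months (log2 difference 1.33, adjusted p = 7.39e-05), with a median of 3.09 TPM against 1.29 in quadriceps. Cx3cr1 was higher there by 1.39 (adjusted p = 1.02e-05), and 7 of the 17 microglia and macrophage markers were higher, with a median log2 difference of 0.51 over the list and the smallest p-values for Trem2 (2.31), Cd68 (1.06) and Itgam (0.87). Summed macrophage markers ran from 184.2 to 442.2 TPM in gastrocnemius and from 128.5 to 291.1 TPM in quadriceps at 10 months, and their part in the Ccl2 difference was not tested.

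Between these muscles neither the ageing nor the exercise difference was called for any of the 8 members or for any other gene (0.0% in both). None of the members had an unadjusted p under 0.05 there with edgeR, and DESeq2 called 0.

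Cord was also compared with the mean of both muscles at 10 months, a comparison in which 92.1% of all genes were called. With TMM factors 5 members were higher in cord (Cx3cl1, Cxcl16, Ccl12, Ccl3 and Ccl4), 4 were lower (Cxcl12, Ccl2, Ccl9 and Ccl6) and Cxcl14 was not called. Cx3cl1 was 37.3-fold higher (log2 difference 5.22, SE 0.09, adjusted p = 3.59e-76) and Cxcl16 1.41-fold. Zmynd15, which overlaps Cxcl16, had 10-month medians of 1.71 TPM in cord, 0.303 in gastrocnemius and 0.3 in quadriceps. The part of its reads in the Cxcl16 fold was not tested. Ccl3 and Ccl4 passed the filter through cord alone, and Ccl12 failed it in quadriceps, so that their being higher in cord follows in part from the filter and no fold is given for them. Ccl9 and Ccl6 were lower by -2.40 (SE 0.16) and -2.26 (SE 0.18) on the log2 scale.

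This split depended on the scaling between such unlike tissues. With total counts and no TMM factors, an alternative chosen after seeing the data, the median of all genes moved from 0.40 to 1.54, and 6 members were higher and 2 lower. The sign changed for Cxcl12, from -1.11 to 0.03 (adjusted p = 0.768), and for Cxcl14, from -0.08 to 1.07 (adjusted p = 1.23e-23), so no direction between cord and muscle is given for these. Without the libraries that stood apart, Cxcl14 was called lower with TMM factors (-0.21, adjusted p = 0.00454). Ccl2 went from -1.66 to -0.53 (adjusted p = 0.0522). Under both scalings Cx3cl1 and Cxcl16 were higher in cord and Ccl6 and Ccl9 lower, with the overlap with Zmynd15 as a limit for Cxcl16. Ccl12, Ccl3 and Ccl4 were also higher under both, which follows in part from the filter.

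The other chemokine genes and their receptors were counted from 5 lists. In cord with age, 0 of 10 tested other CC ligands were called with edgeR (3 at an unadjusted p under 0.05), and 2 of 6 tested CXC and XC ligands rose. These were Cxcl10, an interferon-induced ligand of Cxcr3 (2.63-fold, log2 difference 1.397, SE 0.243, adjusted p = 0.000634), and Cxcl13, which attracts B cells (3.43-fold, 1.78, SE 0.52, adjusted p = 0.0392). The median log2 difference was 0.19 for the CC and 0.27 for the CXC and XC ligands.

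Of 11 tested receptors 3 rose with age in cord, all of them receptors of members whose own level was not called. Cx3cr1 rose 1.18-fold (log2 difference 0.24, SE 0.05, adjusted p = 0.00956), from a median of 32.4 to 40.4 TPM. Cxcr4 rose 1.27-fold (0.35, SE 0.09, adjusted p = 0.0206) and Cxcr6 2.47-fold (1.31, SE 0.35, adjusted p = 0.0279), the latter from 0.209 to 0.425 TPM. Of the 4 tested atypical receptors and the 3 sheddases 0 were called with age, with 1 and 0 at an unadjusted p under 0.05. Adam10 had medians of 71.9 and 63.6 TPM and Adam17 of 18.2 and 16.9 TPM.

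With exercise in cord 0 genes of these 5 lists were called with edgeR, and 1 CXC ligand had an unadjusted p under 0.05. Between exercised mice and sedentary mice of 10 months Cxcl13 (1.91, adjusted p = 0.0374) and Cx3cr1 (0.24, adjusted p = 0.0101) were higher in cord. In the muscles 0 genes of the lists were called with age or exercise. Against 10-month mice, exercised mice had lower Cxcl11 in gastrocnemius (-0.89, SE 0.20, adjusted p = 0.00691) and higher Cxcr4 in quadriceps (0.64, SE 0.21, adjusted p = 0.0391). For Cxcl10, which passed the filter in cord and in both muscles, the ageing difference was larger in cord than in the muscles (1.53, adjusted p = 0.00905).

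For members with a mean of at least 1 CPM, the genes most alike in level over the libraries of a tissue were found by Spearman's rho of log2 CPM. These values describe 33 libraries in cord and gastrocnemius and 31 in quadriceps that share groups, depth and tissue make-up. In gastrocnemius Ccl6 and Ccl9 were each other's nearest gene (rho 0.926), followed by Fcgr2b, an Fc receptor of myeloid and B cells, at 0.813 and 0.854. In quadriceps Fcgr3 led for Ccl6 (0.846) with Ccl9 next (0.84), and the macrophage mannose receptor Mrc1 led for Ccl9 (0.864). In cord Ccl6 was nearest to Tagln2 (0.87), Lyz2 (0.866) and Hcls1 (0.863), and Ccl9 to Lsp1 (0.879), Tagln2 (0.856) and Apod (0.855).

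Cxcl12 was nearest to the vascular endothelial receptor Kdr (0.804) and to the endothelial gene Eng (0.798) in quadriceps, and Kdr was second in cord (0.598) behind Gm9946 (0.599). In gastrocnemius its nearest genes were Epha4 (0.803) and Lrrc8c (0.787). Cxcl16 was nearest to Nupr1 (0.872) in cord, to Unc93b1 (0.889) and Selplg (0.865), a leukocyte ligand of selectins, in gastrocnemius, and to Cav1 (0.744) in quadriceps. Cxcl14 was nearest to Chchd10 (0.933) in cord, to Gsn (0.709) in gastrocnemius and to Smoc2 (0.775) in quadriceps. Cx3cl1 was nearest to Ppp1r13b (0.96) and Syvn1 (0.94) in cord, to Sez6l2 (0.666) in gastrocnemius and to Cdh13 (0.742) in quadriceps.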

How the data were processed

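The chemokine members and all gene lists were chosen with earlier results of these data known. Libraries were made from Trizol RNA with the TruSeq RNA v2 kit, per the labels. Per the submitters' processing notes the aligner was STAR 2.5.2b and the build GRCm38.p5. How reads were counted, and whether by strand, is not given in the sources used here. Deposited by the authors were a table of unnormalized counts for each Entrez gene with its length, and TPM and FPKM tables. The deposited TPM and FPKM values were recomputed from the counts and lengths to within 0.0005. The tables held 97 of 99 labelled libraries; quadriceps 10.4 (sedentary, 18 months) and 10.2 (exercised) were not analysed here. The 49 rows without a gene symbol were kept as genes.

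Counts were tested per tissue, over all 3 groups, with edgeR 4.0.16 (quasi-likelihood F test, R 4.3.3), TMM factors and filterByExpr (minimum count 10, minimum total 15). Tests are two-sided, Benjamini-Hochberg adjusted over all genes tested. Tissues were compared in fits over all 97 libraries or over both muscles. Standard errors (SE) come from the F statistic, and SD is between libraries. Alternatives were DESeq2 1.42.0, RLE factors, no filter, only both compared groups, limma 3.58.1 (voom with quality weights), a gene length slope as covariate, leaving out libraries that stood apart or each library in turn, a replicate block and, added later, total counts without TMM factors. The scripts were tested on simulated data. Named were all members, called pathway genes (at most 4 per list), up to 3 called markers per cell type and the 3 genes most alike per member.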

Additional observations from a re-analysis of the deposited data

Results flagged for a closer look

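In each of the 60 groups of at most 10 libraries, the gap between the outermost library and its nearest neighbour was compared with the range of the group. It was beyond Dixon's critical value in 12, where chance gives about 1 in 20. Cord library 3.1 (10 months) stood above its group for Ccl6 (6.79 CPM, next 4.18), Ccl9 (3.76, next 2.44) and Ccl12 (2.4, next 1.36), the library whose macrophage markers were also highest. Quadriceps library 3.1 (10 months) stood below its group for Cxcl12 (41.3 CPM, nearest 71.5) and Cxcl14 (12.4, nearest 25.7).

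Library number 6.1 of sedentary mice of 18 months stood above its group for Ccl12 in gastrocnemius (0.565 CPM, next 0.307) and in quadriceps (0.621, next 0.339). Its summed red cell markers were also the highest of the group in these muscles, at 4563 and 3763 TPM, and their part in Ccl12 was not tested. Ccl12 in cord library 6.2 of the same group was at 2.24 CPM, where the next was at 1.27. Ccl4 was high in cord library 2.2 of 10 months (0.531 CPM, next 0.36) and in quadriceps library 1.4 of 10 months (0.0762 CPM, next 0.0275), the latter on 3 counts. Ccl2 was high in gastrocnemius library 1.4 of 10 months (1.56 CPM, next 1.01). Cx3cl1 was high in cord library 5.2 of sedentary mice of 18 months (326 CPM, next 265).

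The ageing difference of Ccl3 in cord exceeded that in the muscles by 2.02 on the log2 scale, in edgeR's test of the difference itself (SE 0.50, adjusted p = 0.0142). Ccl3 failed the count filter in both muscles and entered this fit through its cord libraries alone, so the value is a description.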

How the results depend on the processing

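In cord the count of chemokine members called with age was 4, and 2 with a gene length slope as covariate. With DESeq2 and with limma-voom the count was 5. With no filter, with only both compared groups and without the libraries that stood apart the count was 3. It ran from 2 to 5 over the fits that each left out 1 library, and all 33 of these called Ccl3 and Ccl4. For exercised against 10-month cord the count of 2 became 5 with DESeq2, with the length slope and without the libraries that stood apart. It was 6 with limma-voom and 3 when only both compared groups were fitted, and ran from 2 to 5 with 1 library left out. The members added were Cx3cl1, Ccl2 and Ccl6, and Ccl9 with limma. For exercise in cord, and for all 3 comparisons in both muscles, it remained 0 under each of these fits. The exercise difference of cord against muscles was called for 0 members, and for 1 with DESeq2, which gave no adjusted p for Ccl3, Ccl4 and Ccl12 there. DESeq2 gave no adjusted p for Ccl3 in the ageing difference of cord against muscles (log2 value 2.07), so its count is not given. With total counts in place of TMM factors, chosen after seeing the data, Cxcl12 and Cxcl14 in cord against muscle became 0.028 and 1.068 on the log2 scale. RLE factors changed no member call. With 1 library left out, the count of all genes called with age ran from 407 to 1892 in cord (1015 with all), 3 to 80 in gastrocnemius (23) and 18 to 113 in quadriceps (52).

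Numbers are shared between tissues but the labels do not say that they mark an animal. Deviations of same-numbered libraries from their group means correlated with a median of 0.272 between gastrocnemius and quadriceps (28 of 31 over 0.1, 23 best with their own number) and of 0.075 and 0.065 between cord and the muscles. A replicate block on 31 numbers in the fits between tissues changed no member call: 9 members were called in cord against muscles at 10 months, 1 (Ccl2) in gastrocnemius against quadriceps and 1 (Ccl3) in the ageing difference of cord against muscles. Over all genes, calls of the latter went from 213 higher and 303 lower to 729 and 1099 with the block, and between the muscles at 10 months from 1043 and 644 to 1985 and 1726. Within a tissue no paired analysis was possible because its groups share no number.

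Ccl2, Ccl3, Ccl4 and Ccl12 rest on few reads, with 3 to 55 counts per cord library for Ccl2, Ccl3 and Ccl4.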
